A study of Apis mellifera with 5 samples.

Results

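Regucalcin is a calcium-binding protein, known in vertebrates as senescence marker protein 30, and in mammals it is described as a regulator of calcium pumps and calcium-dependent enzymes and as a gluconolactonase. In the transcriptome of the honey bee hypopharyngeal glands (HGs) it was followed through 1 unigene, TC14544, of 20522 unigenes with a read in any library. A unigene is a consensus of expressed sequences that stands for 1 transcript. The unigene was chosen by its identifier, to which the study gives the name regucalcin. Its length is 1076 bases. The deposited annotation does not hold TC14544, so the name could not be checked against it. No genome position is given, since reads were matched to unigenes.

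The HGs are paired glands in the head of worker bees that make the protein of royal jelly during nursing and later turn to enzymes of honey making. Calcium is a common trigger of both secretion and muscle contraction. Muscle cells keep it low at rest with pumps and binding proteins, and the troponin complex on the thin filament reads its rise. Regucalcin differs from the troponin C family of calcium binders in that it has no EF-hand, the usual calcium-binding fold.

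The samples were HGs of age-matched workers of Apis mellifera carnica Pollmann aged 3, 6, 9, 12 or 16 days after leaving the comb. All were full sisters, daughters of a queen inseminated with the sperm of 1 drone, and no other treatment or genotype was compared. Each age had 1 library from a pool of 30 bees, and the libraries held 1697792, 1518649, 1207515, 1344138 and 1815654 uniquely matched reads in the order of age. With 1 library per age no difference has a replicate check. Every interval given covers counting error only, and every test compares 2 libraries and not 2 ages.

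The libraries carried the defining transcripts of the gland. TC24109 and BP540149 (both mrjp2) and TC13222 (mrjp7), which encode major royal jelly proteins, summed to 17654 RPKM (day 3), 37871 (day 6), 89526 (day 9), 92934 (day 12) and 42637 (day 16). RPKM is the number of reads scaled to the length of the unigene and to the unique reads of the library. Muscle transcripts were present as well. The 66 unigenes whose names or annotation text held a muscle word such as titin, troponin or myosin, a few non-muscle myosins and loose matches included, summed to 1174, 3239, 3819, 7526 and 6317 RPKM from the youngest to the oldest bees. Of these sums, 81.0% to 89.4% came from 15 unigenes that the study had placed in 1 group with regucalcin on these same libraries, for a profile that rose and then fell. The other 51 summed to 223, 478, 609, 796 and 956 RPKM. Other cell types contributed little by their named transcripts. The summed level ranged from 12.7 to 29.3 RPKM for 10 fat body unigenes, from 41.7 to 74.0 for 19 neuronal ones, from 10.9 to 18.6 for 3 of haemocytes, from 7.50 to 19.3 for 10 antennal ones and from 0.00 to 3.05 for 2 unigenes with arrestin in their name, the only match to the photoreceptor list. Of the 10 fat body unigenes, 0, 2, 4, 4 and 2 had no read in the order of age. The match to vitellogenin (TC23352) had 5, 2, 2, 1 and 0 reads. The hexamerin 110 unigenes had none on days 9 and 12 (TC12311) or on days 6, 9 and 12 (TC15633). Others had reads in every library, such as hexamerin 70b (TC12341) with 10, 11, 5, 9 and 12, and the match to transferrin TC16581 with 8, 6, 5, 3 and 12. The annotation behind these names holds unigenes below 10 RPKM on day 3, so abundant markers without a name are not in these sums. In pooled tissue, more cells of a type and more RNA per cell cannot be told apart.

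Regucalcin was among the abundant transcripts of the HGs from day 6 on. Its unigene had 749 reads (day 3), 1532 (day 6), 1908 (day 9), 2346 (day 12) and 2605 (day 16). On day 3 its level was 410.0 RPKM (95% exact interval 381 to 440.4). It was 938 RPKM at day 6 (891 to 986), 1468 at day 9 (1403 to 1536), 1622 at day 12 (1557 to 1689) and 1333 at day 16 (1283 to 1386). Day 12 was the highest library and day 3 the lowest, and the highest level was 3.96 times the lowest. These levels correspond to 0.0441%, 0.101%, 0.158%, 0.175% and 0.144% of the unique reads in the order of age. The intervals of the 5 libraries did not overlap.

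**Figure D1:**
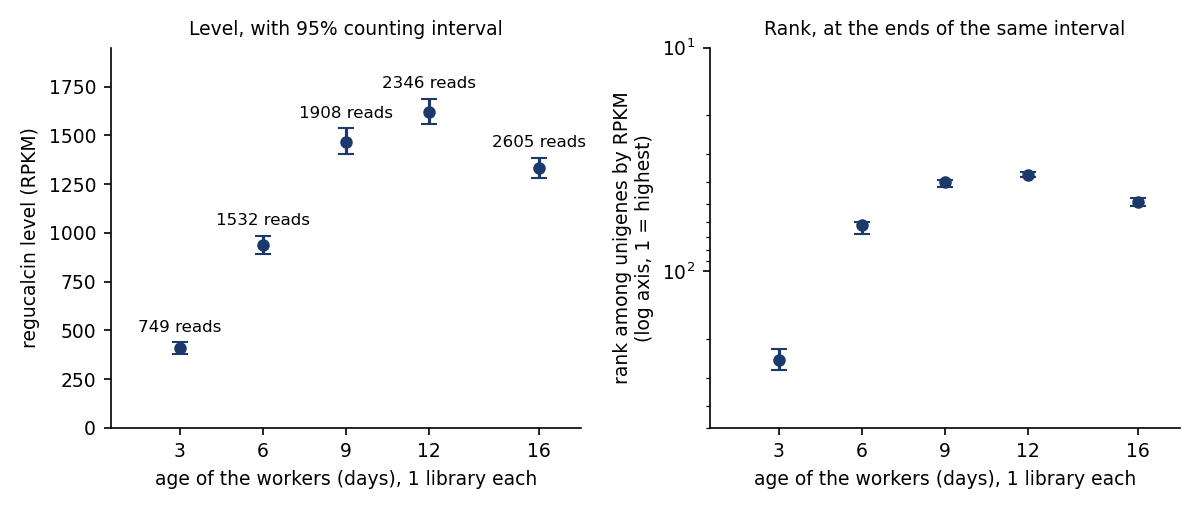
The left panel plots the regucalcin level in RPKM against the age of the workers, with 95% exact counting intervals and the number of reads, and the right panel plots its rank by RPKM on a log axis, where 1 is the highest. The level was 410.0 RPKM on day 3 and 1622 on day 12, and the rank was 250 on day 3 and 37 on day 12.

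The rank of regucalcin followed its level. By RPKM it was number 250 of 18378 unigenes with a read at day 3, 62 of 17785 at day 6, 40 of 17065 at day 9, 37 of 17105 at day 12 and 49 of 17995 at day 16. A position among the 100 highest was thus held at every age except day 3. In the classes that the study used, 10584 unigenes were of moderate abundance (10 to 500 RPKM) on day 3. Of these, 2 were above 500 RPKM in all 4 later libraries, namely regucalcin and TC15095, which carries no name. TC15095 had 442, 503, 556, 1915 and 1339 RPKM in the order of age, so most of its difference lay after day 9.

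Against day 3, regucalcin was called higher in all 4 later libraries. A call required a false discovery rate of at most 0.001 in the test of Audic and Claverie and at least a 2-fold ratio, that is an absolute log2 ratio of 1. The log2 ratio of RPKM over day 3 was 1.19 at day 6 (interval 1.07 to 1.32), 1.84 at day 9 (1.72 to 1.96), 1.98 at day 12 (1.86 to 2.10) and 1.70 at day 16 (1.58 to 1.82). In linear terms the day 12 level was 3.96-fold and the day 6 level 2.29-fold that of day 3. Of all unigenes tested, 0.574% were called higher and 0.289% lower at day 6, 1.27% higher and 6.31% lower at day 9, 1.8% higher and 12.5% lower at day 12, and 2.51% higher and 9.9% lower at day 16. A call as higher against day 3 was therefore uncommon in each comparison. The study singled out regucalcin from unigenes that differed in these same libraries, so its calls against day 3 are not independent evidence. The 4 comparisons share the day 3 library. Where replicate libraries were assumed to vary by 0.2 (coefficient of variation, exact test of edgeR), regucalcin was called on day 12 and not on days 6, 9 and 16, and at 0.4 it was called at none of the 4 ages.

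On the RPKM scale the typical unigene lay lower in the later libraries. Over the 15538 unigenes with 10 or more reads, the median log2 ratio was -0.20 (day 6), -0.48 (day 9), -0.66 (day 12) and -0.51 (day 16). Relative to that median, the log2 ratio of regucalcin was 1.39, 2.32, 2.65 and 2.21 at the 4 later ages, a value that does not depend on how the libraries are scaled.

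Few transcripts that were as abundant as regucalcin on day 3 had as large a ratio. There were 598 other unigenes with a day 3 level within 2-fold of its own. Of these, 3 had a larger ratio at day 6, 5 at day 9, 7 at day 12 and 6 at day 16, and the median log2 ratios of the 598 were -0.40, -0.89, -1.03 and -1.09. That the study singled out regucalcin on these libraries favoured such a place. In all, 62 unigenes were called higher in all 4 comparisons with day 3. This number ranged from 44 (clean read totals) to 110 (median of ratios) with the other scalings and was 0 with an assumed variation of 0.2. Of the 62, the ones with a day 3 level at or above that of regucalcin were the 3 royal jelly unigenes TC24109, TC13222 and BP540149.

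**Figure D2:**
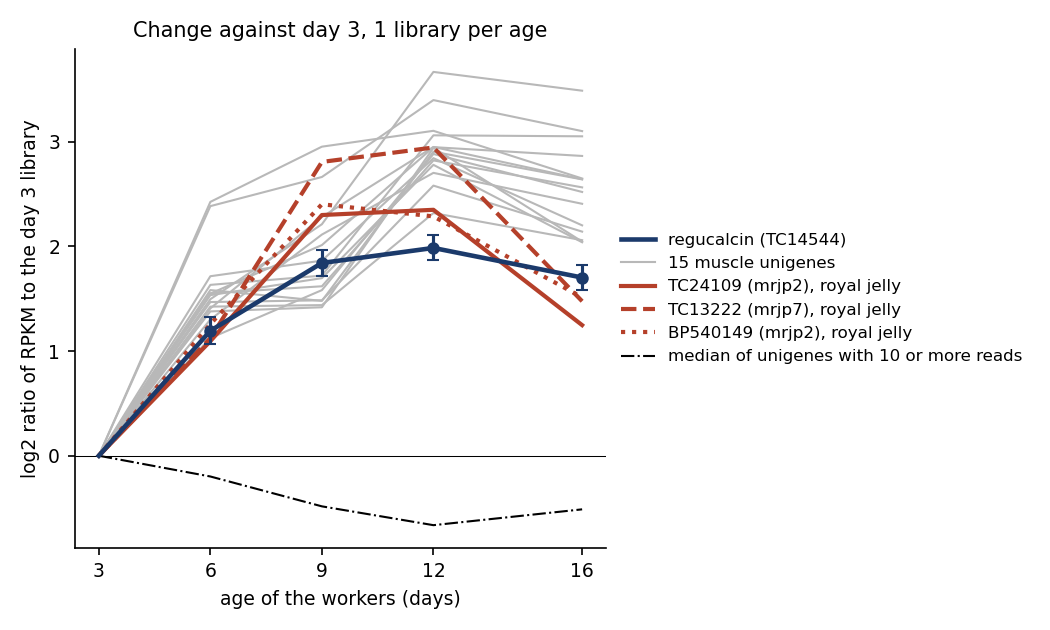
The log2 ratio of RPKM to the day 3 library is plotted against age for regucalcin (with 95% exact intervals), the 3 royal jelly unigenes, the 15 muscle unigenes of the M group (grey) and the median of all unigenes with at least 10 reads. Regucalcin lay at 1.98 on day 12, below all 15 muscle unigenes, while the median of all unigenes was -0.66.

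Among the later ages the differences were smaller and no comparison was called. Relative to day 6 the log2 ratio was 0.65 at day 9 (interval 0.55 to 0.75), 0.79 at day 12 (0.70 to 0.88) and 0.51 at day 16 (0.42 to 0.60). Each of these 3 libraries thus lay above day 6 by more than counting error. In these comparisons with day 6, 1.18% (day 9), 7.59% (day 12) and 5.59% (day 16) of all unigenes were called, in either direction. The 3 highest libraries lay close together. Day 12 differed from day 9 by a log2 ratio of 0.14 (0.06 to 0.23), day 16 from day 9 by -0.14 (-0.22 to -0.05) and day 16 from day 12 by -0.28 (-0.36 to -0.20). Of all unigenes, 0.788% were called higher and 1.44% lower on day 12 relative to day 9. On day 16, 2.98% were called relative to day 9, and 2.33% were called higher and 0.748% lower relative to day 12.

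The order of the 3 latest libraries depended on the total used for scaling. Day 12 was highest, then day 9, then day 16, with the total of unique reads, with the TMM factors of edgeR, with median-of-ratios factors and with the most abundant unigenes left out of the total. With the total of clean reads, which counts all reads after quality filtering, day 16 was highest and day 12 next. On that scale day 16 stood at a log2 ratio of 0.11 over day 12 and 0.42 over day 9. The clean read totals of the 5 libraries differed by at most 2.59%, while the unique reads ran from 1207515 (day 9) to 1815654 (day 16). In the counts of the study, the share of reads matching several positions was largest on day 9 and next largest on day 12. RPKM thus divides by a part of the library that differs with age. The 3 factors that look past the most abundant unigenes put day 12 against day 6 over the 2-fold threshold, at 1.24 with TMM, 1.25 with median of ratios and 1.09 without the most abundant unigenes. Day 3 was lowest and day 6 next to lowest under all 5 scalings.

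**Figure D3:**
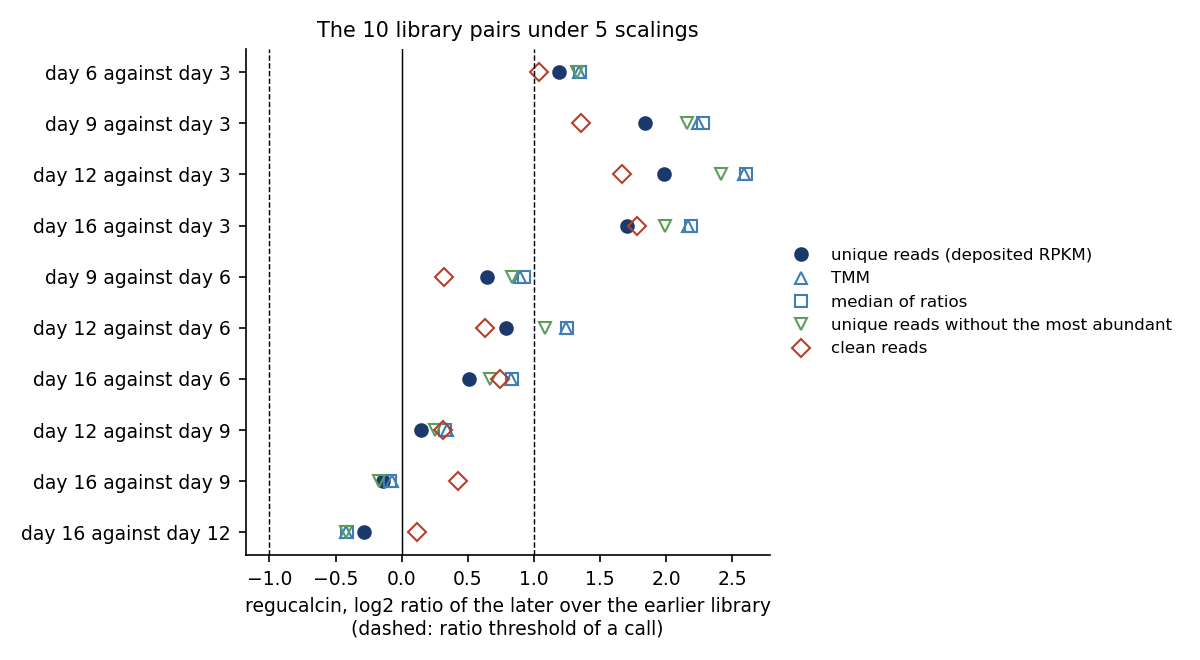
Each row is 1 of the 10 library pairs and each symbol the log2 ratio of regucalcin, later over earlier library, under 1 of 5 scalings, with dashed lines at the ratio threshold of a call. All symbols of the 4 comparisons with day 3 lie above 1, and only the clean read totals (diamonds) place day 16 above days 9 and 12.

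The study placed regucalcin in a group of 29 unigenes (its M group), whose profile was judged to match the growth and later decline of the glands. Its model of gland development and secretion rises, peaks on day 9 and then falls. The group was chosen on these same libraries, so its direction against day 3 is not independent evidence. Among the other 28 are 15 unigenes of muscle proteins, the 3 royal jelly unigenes and 10 others. Of the 29, 28 had their highest RPKM on day 12 and 1, BP540149, on day 9, but with clean read totals 13 were highest on day 12 and 16, regucalcin included, on day 16. All 28 others were called higher on days 9, 12 and 16 against day 3 and 27 on day 6. With an assumed variation of 0.2 between replicate libraries, 0 were called at day 6, 7 at day 9, 27 at day 12 and 22 at day 16, and with 0.4 none at any of these ages. The unigene not called on day 6 was troponin T DB731917, which had 6 reads on day 3 and 28 on day 6. Within this group regucalcin had the smallest ratio of day 12 against day 3, since 28 of 28 others lay above it, with a median log2 ratio of 2.93.

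Regucalcin and the muscle unigenes parted in both directions. On day 6 against day 3, 14 of the 15 muscle unigenes had a larger log2 ratio than regucalcin, with a median of 1.53 against 1.19. On day 9 against day 6 only 3 of the 15 did, with a median of 0.16 against 0.65. The group was chosen for differences from day 3, and unigenes with few reads reach a call only at large ratios. The size of these gaps may thus depend in part on that choice, which was not tested. Of the steps between neighbouring ages, the widest gap was that of day 12 against day 9. This step and that of day 9 against day 6 share the day 9 library, so their opposite gaps are not separate observations. The median log2 ratio of day 12 against day 9 was 1.07 over the 28 others and 1.08 over the 15 muscle unigenes, against 0.14 for regucalcin. All 15 muscle unigenes and 24 of the 28 lay above regucalcin, and 15 of the 28 were called higher and 0 lower (0 higher with an assumed variation of 0.2 between replicate libraries). To compare unigenes without scaling the libraries, the change of regucalcin was divided by that of each other unigene, with an exact conditional interval. For day 12 against day 9 this interval lay below 0 on the log2 scale for 21 of 28 unigenes, above 0 for 2, and held 0 for 5, with a median of -0.92. Of the 15 muscle unigenes, 13 lay below 0, and the intervals of DB731917 (troponin T) and DB752873 (titin) held 0. For day 6 against day 3, 9 of 28 lay below 0, 0 above and 19 held 0, while for day 9 against day 6, 5 lay below, 15 above and 8 held 0, with a median of 0.33. For day 9 against day 3 the steps together left a mixed picture, with 6 of 28 below 0, 4 above and 18 holding 0, and a median of -0.13. For day 12 against day 3, 25 of 28 lay below 0, 0 above and 3 held 0, with a median of -0.95. Those 3 were TC12457, TC14607 and TC18912, so by counting error regucalcin was not told apart from them as the smallest. For day 16 against day 12, 2 lay below, 8 above and 18 held 0, with a median of 0.07.

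**Figure D4:**
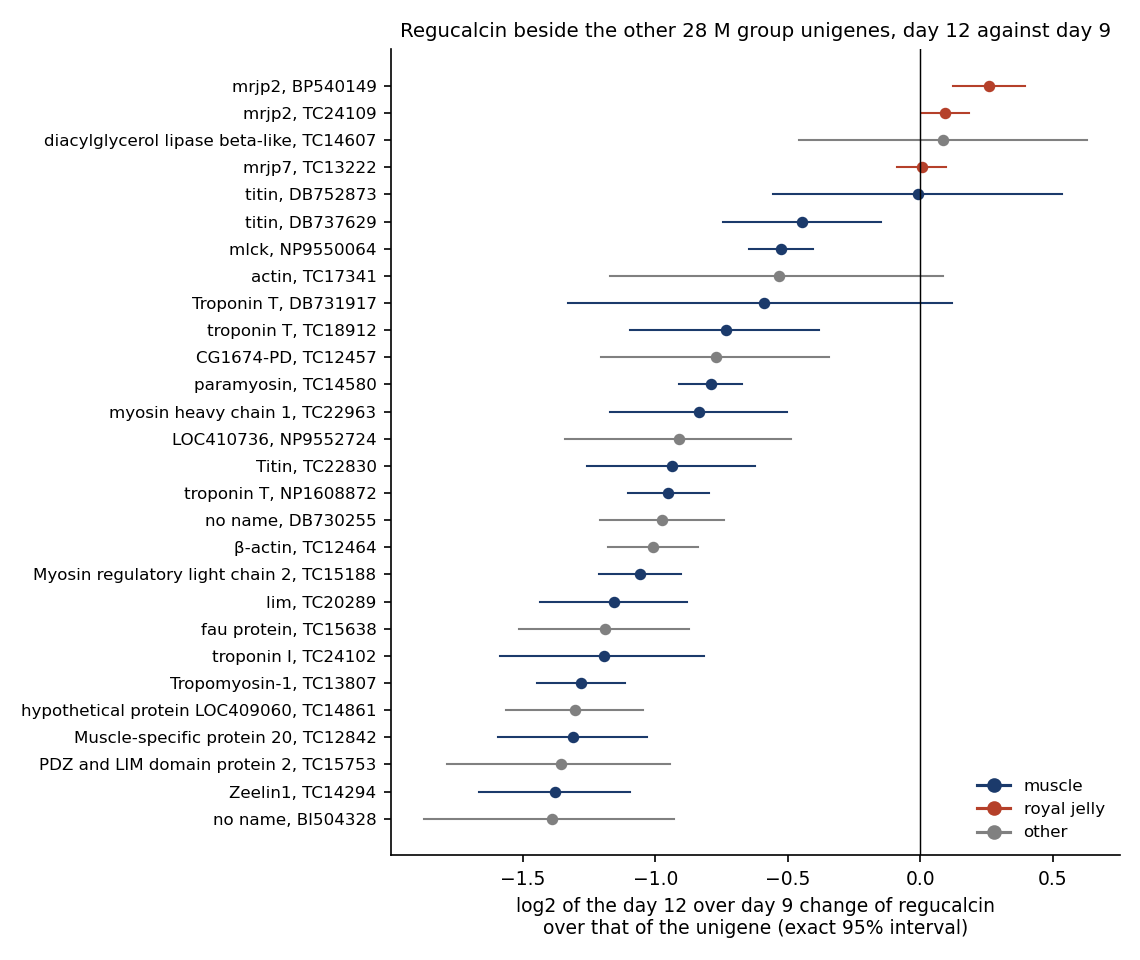
Points give, on the log2 scale, the day 12 over day 9 change of regucalcin divided by the same change of each of the other 28 M group unigenes, with exact 95% intervals, and colours mark muscle, royal jelly and other unigenes. Of the 28 intervals, 21 lie wholly below 0 and 2, both mrjp2, wholly above it.

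Some members of the calcium-sensing thin filament showed this gap clearly. Troponin T NP1608872, which ties the troponin complex to tropomyosin, had 380, 940, 756, 1798 and 1791 reads at the 5 ages, and its log2 ratio of day 12 against day 9 was 1.10. Troponin I TC24102, the inhibitory subunit, had 35, 97, 82, 231 and 310 reads and a ratio of 1.34. Tropomyosin-1 TC13807 had 279, 747, 553, 1652 and 1858 reads and a ratio of 1.42. All 3 were called higher on day 12 against day 9. The change of regucalcin over theirs was -0.95 for NP1608872 (interval -1.10 to -0.80), -1.20 for TC24102 (-1.59 to -0.82) and -1.28 for TC13807 (-1.45 to -1.11) on the log2 scale. For the other troponin T unigenes it was -0.74 with TC18912 (-1.10 to -0.38) and -0.59 with DB731917 (-1.33 to 0.12). The interval of DB731917 held 0, and neither of these unigenes was called.

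The other muscle unigenes ranged more widely, and 7 of all 15 were not called on day 12 against day 9. Myosin regulatory light chain 2 TC15188, a calcium-binding subunit of the myosin motor, had 322, 844, 703, 1800 and 2034 reads. Its log2 ratio of day 12 against day 9 was 1.20. TC12842, muscle-specific protein 20 of the calponin family of actin binders, had 48, 121, 158, 482 and 575 reads and a ratio of 1.45. Myosin heavy chain TC22963 had 46, 135, 119, 261 and 226 reads and a ratio of 0.98, which was not called. Paramyosin TC14580, a core protein of invertebrate thick filaments, had 665, 1740, 1907, 4059 and 5172 reads and a ratio of 0.94, and a second troponin T unigene, TC18912, had 55, 132, 106, 217 and 245 reads and 0.88. The unigene named mlck, NP9550064, had 546, 1295, 1886, 3337 and 3641 reads and a ratio of 0.67 (interval 0.59 to 0.75). None of these 3 was called, and neither was DB731917 (troponin T), at 0.73. The unigene named lim, TC20289, had 78, 152, 166, 455 and 478 reads and was called at 1.30. The titins, giant springs of the sarcomere, differed among themselves. TC22830 had 56, 145, 129, 304 and 246 reads and a ratio of 1.08, and DB737629 had 54, 119, 166, 278 and 306 reads and a ratio of 0.59. DB752873 was the muscle unigene closest to regucalcin, with 10, 48, 55, 68 and 67 reads, a ratio of 0.15 and an interval from -0.38 to 0.69.

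The 5 M group unigenes closest to regucalcin in the ratio of day 12 against day 9 were TC13222 (mrjp7) at 0.14, DB752873 (titin) at 0.15, TC14607 at 0.06, TC24109 (mrjp2) at 0.05 and BP540149 (mrjp2) at -0.12. TC14607 was named by the study as like diacylglycerol lipase beta, an enzyme that releases monoacylglycerol from diacylglycerol. It had 18, 56, 57, 66 and 62 reads. The 5 farthest were BI504328, which carries no name, at 1.54, Zeelin1 TC14294 at 1.52, PDZ and LIM domain protein 2 TC15753 at 1.50, muscle-specific protein 20 TC12842 at 1.45 and the hypothetical protein TC14861 at 1.45. All 3 royal jelly unigenes were thus among the closest 5.

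Regucalcin and the royal jelly transcripts parted most in 2 steps. On day 9 against day 6 the log2 ratio was 0.65 for regucalcin, 1.20 for TC24109 (mrjp2), 1.68 for TC13222 (mrjp7) and 1.14 for BP540149 (mrjp2), and these 3 were called higher. The change of regucalcin over theirs was -0.56 for TC24109 (interval -0.66 to -0.46), -1.03 for TC13222 (-1.14 to -0.93) and -0.50 for BP540149 (-0.66 to -0.34). On day 12 against day 9 the change of regucalcin over theirs was smaller. It was 0.26 for BP540149 (0.12 to 0.40), 0.09 for TC24109 (0.005 to 0.18) and 0.01 for TC13222 (-0.09 to 0.10). On day 16 against day 12 the difference was larger again, with the sign opposite to that of day 9 against day 6. The log2 ratio of day 16 against day 12 was -0.28 for regucalcin, -1.47 for TC13222 (mrjp7), -1.10 for TC24109 (mrjp2) and -0.77 for BP540149 (mrjp2), and of these TC13222 and TC24109 were called lower. The change of regucalcin over that of the royal jelly unigene was 1.19 for TC13222 (interval 1.10 to 1.27), 0.82 for TC24109 (0.74 to 0.90) and 0.49 for BP540149 (0.35 to 0.63). The muscle unigenes stood nearer to regucalcin in the median, at -0.30 for the 15, and none of them was called. Their ratios ran from -0.90 to -0.01, and Zeelin1 TC14294, at -0.90, fell further than BP540149. The interval of the change of regucalcin over theirs lay above 0 for 4 of the 15 and below 0 for 2, and held 0 for 9. By these intervals, regucalcin lay below 13 of the 15 muscle unigenes on day 12 relative to day 9, and above all 3 royal jelly unigenes on day 16 relative to day 12. In the quantitative PCR of the study, TC13222 (mrjp7) was higher on day 16 than on day 12, opposite to its ratio here. So were the muscle unigenes TC12842, TC20289, TC22830, TC22963 and DB752873, while DB731917 was lower. Regucalcin, TC24109 and BP540149 were not measured in that way. Of the 66 muscle unigenes, which include the 15 of the M group, 20 were called higher at day 6, 23 at day 9, 30 at day 12 and 31 at day 16 against day 3, and 1 was called lower, at day 12. Without the 15 these counts were 6, 8, 15 and 16 of 51. With an assumed variation of 0.2, 0 of the 66 were called at day 6, 5 at day 9, 22 at day 12 and 25 at day 16. Of the 44 unigenes of the other cell types, 0 were called higher, and 2 neuronal ones, a muscarinic acetylcholine receptor (NP9549495) and neuroligin 5 (TC14368), were called lower on day 12, TC14368 on day 16 too. Over all unigenes, 0.574% (day 6), 1.27% (day 9), 1.8% (day 12) and 2.51% (day 16) were called higher, and 0.289%, 6.31%, 12.5% and 9.9% lower. The 0 of 44 called higher is near the share of all unigenes. Every unigene of the muscle list and of the other cell types had a read on day 3. Since the M group, with the 3 royal jelly unigenes and most of the muscle RPKM, was picked on these libraries for a profile shared with regucalcin, that their levels moved together was fixed by the choice, and the part of either tissue in its level was not tested.

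No other unigene with a name of the regucalcin kind (regucalcin, senescence marker protein or gluconolactonase) was found among the names used here. Of 40 unigenes whose names or annotation text held a word for calcium channels, pumps, exchangers, binding proteins or calcium-dependent enzymes, a few loose matches included, 1 was called higher and 0 lower at each of the 4 later ages against day 3. Over all unigenes, 0.574%, 1.27%, 1.8% and 2.51% were called higher at these ages, and 0.289%, 6.31%, 12.5% and 9.9% lower. The 1 of 40 is near the share called higher on day 16. All 40 had a read on day 3, and most had too few reads for a call. For the 29 with 10 or more reads, the median log2 ratio was -0.01 (day 6), -0.25 (day 9), -1.25 (day 12) and -0.44 (day 16), beside -0.20, -0.48, -0.66 and -0.51 for all unigenes with as many reads. The 40 came to 184 RPKM (day 3), 198 (day 6), 176 (day 9), 181 (day 12) and 217 (day 16). They were all low on day 3 by the limit of the annotation, so abundant transcripts of calcium handling are not among them. The member called was TC22616, a match to sarcalumenin, the calcium-storing glycoprotein of the sarcoplasmic reticulum. It had 19, 72, 63, 144 and 192 reads at the 5 ages and a log2 ratio of 3.26 on day 12 against day 3 (interval 2.56 to 4.03). It was called higher on day 12 against day 9 too, at 1.04 (0.60 to 1.49), where regucalcin stood at 0.14, and the difference between these ratios was not tested.

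The other calcium unigenes had few reads. Of those with the most, calpain-7 TC14220, a calcium-dependent protease in name, had 46, 38, 32, 17 and 38 reads. Matches to a beta subunit of calcium channels had 34, 21, 6, 10 and 15 reads (TC16596) and 20, 18, 10, 10 and 4 (TC17487). Protein phosphatase 1F NP9552826 had 18, 19, 11, 4 and 21 reads, and TC22752, with a cache domain of calcium channel subunits, had 19, 19, 10, 10 and 15. Troponin C TC19987, the calcium sensor of the thin filament, was picked for its role after its values were seen and had 14, 15, 3, 12 and 14 reads. None of these 6 was called against day 3. They had at most 46 reads in a library, so only large differences could be detected at this depth.

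The profiles most like that of regucalcin were sought among 8030 unigenes with at least 100 reads in all and a read in every library. Likeness was the root mean square difference between log2 RPKM values, each centred on the mean of its unigene over the 5 libraries. With 5 points, this is a description of these libraries. The median difference over all unigenes was 0.98, and 15 unigenes lay within 0.25. The closest was TC17644, without a name, at 0.17, with 64, 101, 177, 184 and 191 reads. Of the 10 closest, 4 carry a name. NP9553843, a match to maternal protein exuperantia, which in Drosophila helps to localise messenger RNA in the egg, lay at 0.18 with 12, 27, 24, 37 and 47 reads. TC13925, a match to molybdenum cofactor sulfurase, which activates molybdenum enzymes, lay at 0.21, and TC14607, the lipase-like M group unigene, at 0.23. TC12591, a match to an RNA-binding protein, also lay at 0.23. The next with a name was TC24155, a match to myosin light chain kinase, at 0.24.

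Among the closest unigenes without a name, TC15559 had 244, 433, 669, 715 and 510 RPKM in the order of age and lay at 0.21. TC12344 lay at 0.23 and was far more abundant than regucalcin, with 4306, 7811, 10564, 15592 and 14714 RPKM. TC19690, with 153, 245, 489, 388 and 367 RPKM, also lay at 0.23. The other 2 of the 10 were DB745877 and TC23893, at 0.22 and 0.23. Of the 28 other M group unigenes, 11 were among the 100 closest, and the median place of the 28 was 129 of 8030.

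The unique reads of regucalcin did not spread over its whole unigene. They covered 60.9% (day 3), 60.5% (day 6), 62.2% (day 9), 61.1% (day 12) and 61.9% (day 16) of its length, a range of 1.67 percentage points over a 3.96-fold range of level. In bases this was 655, 651, 669, 657 and 666 of 1076, so each library left at least 407 bases without a unique read. Reads that matched several positions are not counted here, and whether such reads fell on the uncovered part was not tested. A single read covered 49 bases in 99.87% of 9925 unigenes with 1 read. The coverage was low for so many reads. Among unigenes of like length (0.8 to 1.25 times) and like reads (0.5 to 2 times), the median coverage was 85.1% over 93 unigenes at day 3, 94.6% over 23 at day 6, 93.0% over 8 at day 9, 92.4% over 10 at day 12 and 93.0% over 13 at day 16. Of these unigenes, 10 had a lower coverage than regucalcin at day 3, 0 on days 6, 9 and 12, and 1 on day 16. RPKM divides by the whole length, so the level per covered base is higher than stated, by about the same factor in each library.

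**Figure D5:**
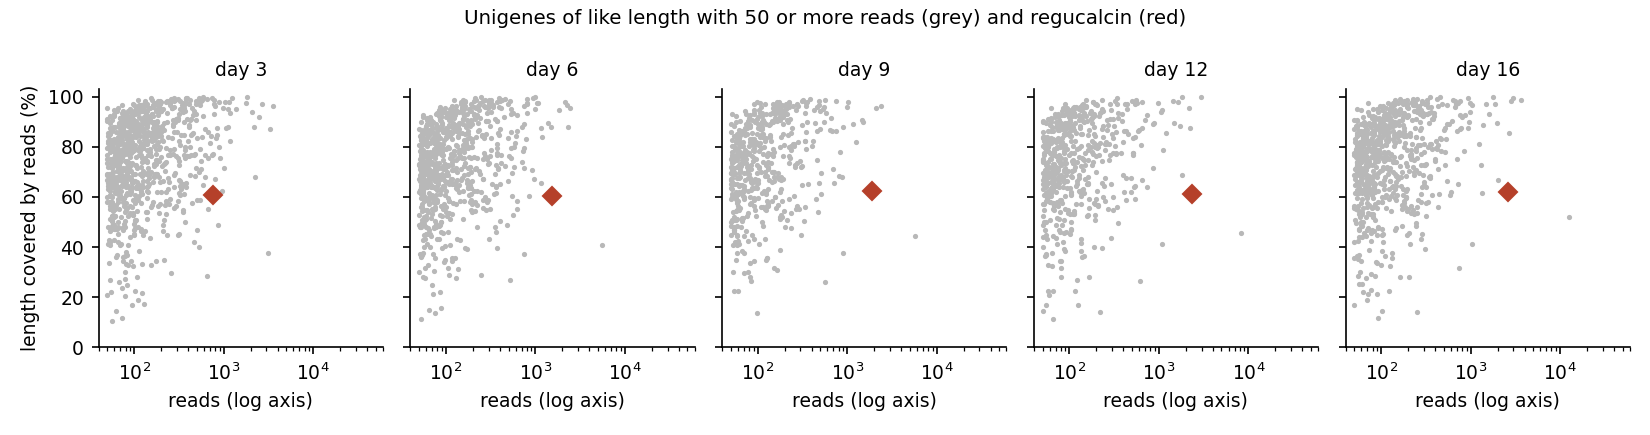
The share of a unigene's length covered by unique reads is plotted against its reads on a log axis, 1 panel per library, for unigenes of like length with at least 50 reads (grey) and regucalcin (red). Regucalcin stays between 60.5% and 62.2% while its reads range from 749 to 2605, below most unigenes with as many reads.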

How the data were processed

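HG RNA of 30 bees per age was sequenced by the authors on an Illumina HiSeq, in 1 library for each of 5 ages. After filtering, the reads were matched with SOAP2 (2 mismatches allowed) to unigenes, the consensus sequences of the DFCI Honey Bee Gene Index. No version of SOAP2 is given in the sources. For each unigene the authors deposited a count of reads matching no other unigene, its RPKM, and the fraction of its length under reads (coverage). The deposited count was used for tests and intervals. A library with many reads in a few unigenes gives lower RPKM values to all others.

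TC14544 and the lists of names were chosen with earlier results of these data known. Names come from the deposited annotation (7628 unigenes, all below 10 RPKM on day 3, mostly best matches in other species) and from the study. Columns of other comparisons were not used.

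Pairs of libraries were compared by the two-sided test of Audic and Claverie, adjusted by Benjamini and Hochberg over all unigenes with a read in either library. The thresholds are those of the study, but the test was chosen here. Intervals are 95% exact (Clopper-Pearson) or exact conditional intervals, and hold counting error alone, because each age has 1 library. Copies made by PCR are not separate molecules, so even this error may be larger than the intervals show. The alternatives were TMM (edgeR 4.0.16), median-of-ratios and clean read totals, totals without the 16 unigenes that were among the 10 most abundant of any library, Fisher's exact test, the exact test of edgeR with an assumed variation between replicates, and a minimum of 10 reads. The M group unigenes named are the 5 closest and the 5 farthest in the ratio of day 12 against day 9 and those of muscle and calcium regulation, and of the calcium list the 6 with the most reads and those called, with troponin C TC19987 added after its values were seen. The comparisons of M group unigenes on day 6 against day 3 and day 9 against day 6, and the split of the muscle list, were also added then. The 10 closest profiles and the 5 closest with a name were named, and TC15095 after its values were seen. The test was tried on simulated data. Python 3.11.15, scipy 1.17.1 and R 4.3.3 were used.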

Additional observations from a re-analysis of the deposited data

How the results depend on the processing

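The 10 log2 ratios of regucalcin were recomputed under 8 alternatives, and 68 of the 80 values kept their direction and their call. Part of this was fixed in advance. Fisher's exact test, the assumed variations and the minimum of 10 reads leave the ratio itself unchanged. Under them the pairs among the later ages, all below the 2-fold threshold, could not gain a call. With clean read totals 2 ratios reversed, day 16 lying at 0.42 over day 9 and 0.11 over day 12. Day 12 against day 6 was called at 1.24 with TMM, 1.25 with median of ratios and 1.09 without the most abundant unigenes. With an assumed variation of 0.2 between replicate libraries the call was lost on day 6 (log2 ratio 1.19), day 9 (1.84) and day 16 (1.70) against day 3 and held on day 12, and with 0.4 it was lost on all of them, day 12 (1.98) included. The calls of other unigenes were also recomputed, by choices made after the data were seen. With an assumed variation of 0.2, the calcium list had 1 called higher on days 12 and 16 and 0 on days 6 and 9, and with 0.4 it had 0 at every age. Under both, 0 M group unigenes were called higher on day 12 relative to day 9 and 0 lower on day 16 relative to day 12. Clean read totals gave 1 calcium unigene called lower on day 9 and 1 M group unigene called lower on day 16 against day 12. The rank by reads alone was 71 (day 6), 43 (day 9), 42 (day 12) and 56 (day 16). Of the 10 closest profiles, 2 were shared with the 10 by Pearson's r and 4 with the 10 among unigenes of at least 500 reads.

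Over all unigenes, calls on day 12 against day 3 numbered 347 higher and 2411 lower, with 702 and 825 under TMM, 719 and 795 with median of ratios, 544 and 1186 without the most abundant unigenes and 276 and 3761 with clean read totals. With an assumed variation of 0.2 they numbered 157 and 351, and with 0.4 they numbered 11 and 5. With an assumed variation of 0.2 or 0.4, 0 unigenes were called on day 6 against day 3, against 111 higher and 56 lower by counting error alone. No paired analysis was possible because each age has 1 library. No replicate could be left out for the same reason.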
